A study of Arabidopsis thaliana with 14 samples.

Results

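The genes described here are 10 Arabidopsis thaliana genes of jasmonate synthesis and jasmonate response: LOX2 (AT3G45140), LOX3 (AT1G17420), LOX4 (AT1G72520), AOS (AT5G42650), AOC1 (AT3G25760), AOC2 (AT3G25770), OPR3 (AT2G06050), JAR1 (AT2G46370), VSP1 (AT5G24780) and VSP2 (AT5G24770). They were taken by their gene identifiers from the deposited RNA-seq tables, which hold 33278 gene identifiers each, and all 10 passed the filter on low values in both tables. The question of the experiment was how the leaf transcriptome changes when the histone deacetylase HDA9 or its partner POWERDRESS (PWR) is lost. Early senescent (ES) leaves of the pwr mutant (2 libraries), the hda9 mutant (2 libraries) and wild-type Columbia-0 (WT, 2 libraries) were compared in one table. Young leaves (YL) of the hda9 mutant (1 library) and of WT (2 libraries) were compared in another, and there was no YL library of pwr. The labels give the YL leaves as 2 weeks old and give no age for ES leaves. The methods of the study instead give 10-day-old seedlings for YL. Both mutants are T-DNA insertion lines in the Columbia-0 background, 1 line for each gene, and all plants grew on soil in continuous light. The study calls its RNA-seq replicates biological, and the labels do not say which plants or days they came from, so the tests measure the spread between these libraries.

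Jasmonates are fatty acid-derived hormones that leaves make after wounding and during ageing. In the chloroplast a 13-lipoxygenase (LOX2, LOX3 or LOX4) oxygenates linolenic acid, allene oxide synthase (AOS) turns the product into an unstable epoxide, and allene oxide cyclase (AOC1, AOC2 and related copies) closes its ring to give OPDA. In the peroxisome OPR3 reduces OPDA, which is then shortened by beta-oxidation, and in the cytosol JAR1 joins the resulting jasmonic acid to isoleucine. Jasmonoyl-isoleucine is read by the receptor COI1, which marks JAZ repressors for degradation and so frees MYC transcription factors. VSP1 and VSP2 encode vegetative storage proteins with acid phosphatase activity, and are classical reporters of the MYC branch of the response.

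The upstream sequences of the VSP pair and the AOC pair are shown because within each pair the member with the larger fitted fall in pwr, VSP1 or AOC1, holds a T/G-box and the other does not, a contrast chosen after the values were seen. The LOX3 and LOX4 pair goes the other way, since LOX4 holds the T/G-box and had no fitted fall (0.23), whereas LOX3 had one (-1.0). Each is the 300 bases before the RefSeq gene start (assembly TAIR10.1), on the gene's strand, with the T/G-box (AACGTG, or CACGTT where it lies on the other strand) in capitals. The VSP1 window is chr5:8509202-8509501 (minus strand), the VSP2 window chr5:8502225-8502524 (minus strand), the AOC1 window chr3:9403479-9403778 (plus strand) and the AOC2 window chr3:9406369-9406668 (plus strand).
VSP1: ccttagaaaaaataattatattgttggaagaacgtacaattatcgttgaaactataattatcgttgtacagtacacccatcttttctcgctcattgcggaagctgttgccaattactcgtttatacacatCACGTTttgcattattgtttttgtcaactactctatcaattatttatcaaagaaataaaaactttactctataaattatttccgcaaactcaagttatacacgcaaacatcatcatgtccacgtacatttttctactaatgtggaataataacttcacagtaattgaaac
VSP2: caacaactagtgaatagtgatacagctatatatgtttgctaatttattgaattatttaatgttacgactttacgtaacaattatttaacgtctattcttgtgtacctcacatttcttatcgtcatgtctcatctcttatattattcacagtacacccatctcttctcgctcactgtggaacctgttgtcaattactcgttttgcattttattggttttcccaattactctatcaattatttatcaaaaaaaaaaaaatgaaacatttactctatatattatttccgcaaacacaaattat
AOC1: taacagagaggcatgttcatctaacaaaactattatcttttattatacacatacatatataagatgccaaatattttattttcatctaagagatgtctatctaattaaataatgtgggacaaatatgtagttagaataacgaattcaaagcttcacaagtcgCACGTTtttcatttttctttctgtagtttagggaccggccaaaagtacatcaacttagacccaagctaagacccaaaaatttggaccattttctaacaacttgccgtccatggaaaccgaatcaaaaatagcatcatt
AOC2: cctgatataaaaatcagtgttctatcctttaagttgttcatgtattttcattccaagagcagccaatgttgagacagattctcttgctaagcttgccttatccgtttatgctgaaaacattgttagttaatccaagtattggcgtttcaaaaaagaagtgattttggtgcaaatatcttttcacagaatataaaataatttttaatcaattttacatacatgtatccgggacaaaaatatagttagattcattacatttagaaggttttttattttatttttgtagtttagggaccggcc
The T/G-box was found, on either strand, in 8.71% of 27443 windows of this length and in 3 of the 10 genes, LOX4 (94 bases before the gene start), AOC1 (138 bases) and VSP1 (170 bases). The G-box CACGTG was in 7.09% of windows and in 1 of the 10, AOS, 6 bases before its start. The W-box core TTGAC was in 50.4% of windows and in 7 of the 10, VSP1 and VSP2 among them. No match of these motifs overlapped another in the VSP and AOC windows. The longest run shared by the VSP1 and VSP2 windows was 23 bases, tactctatcaattatttatcaaa, and it began 142 bases before the VSP1 start and 76 bases before the VSP2 start. The AOC windows shared 19 bases, tgtagtttagggaccggcc, which began 117 bases before the AOC1 start and 19 bases before the AOC2 start. A gene start depends on which transcripts are annotated, so these distances hold for this annotation only, and a match is a run of letters and not a measured binding site.

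The pairs also resemble each other in their coding sequence, which bears on how reads were assigned. Aligned coding bases were 89.5% identical between VSP1 and VSP2 (longest identical run 54 bases), 90.3% between AOC1 and AOC2 (47 bases) and 80.6% between LOX3 and LOX4 (24 bases). Reads from the runs that are identical could have been split between the copies, and the values of single copies are uncertain to that extent.

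Over the whole data set, a few facts touch these genes. HDA9 was at 1.12 and 3.21 FPKM in hda9 ES leaves, against 5.94 and 11.7 FPKM in WT ES leaves, and at 0.918 FPKM in hda9 YL leaves, against 3.34 and 4.73 FPKM in WT YL leaves. PWR was at 7.01 and 6.02 FPKM in pwr ES leaves, against 10.2 and 17.0 FPKM in WT ES leaves. FPKM scales the fragments of a gene by its transcript length and by the mapped reads of the library, so levels of different genes are compared per length, and the tables give no counts. The 9 libraries fall into sets that no label names. Low FPKM values lie on common steps in 5 of them, which are replicate 2 of WT ES, hda9 ES and WT YL together with pwr ES replicates 1 and 2, and in the other 4 they do not. Steps are thus seen in all pwr leaves, whereas WT ES and hda9 ES have 1 library of each kind, so differences within a set are given beside the pooled ones for the 10 genes, and as medians for the lists. The leaf markers RBCS1A, CAB1 and RCA were at 1023 FPKM or more in every library. In every ES library the root hair genes COBL9 and EXPA7 were at 0.0830 FPKM or less, and the 4 flower genes at 1.87 FPKM or less. SCR, the other root gene listed, was between 10.3 and 14.9 FPKM in the ES libraries and between 10.3 and 17.4 FPKM in the YL libraries.

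In WT ES leaves AOC2 had the highest mean level (1556 ± 921 FPKM, SD, n = 2), and was followed by LOX2 (819 ± 105), VSP2 (810 ± 254), VSP1 (756 ± 126), AOS (596 ± 146) and AOC1 (456 ± 142). Each of these 6 was above at least 98.4% of the 18140 genes tested in ES. OPR3 (137 ± 89.2), JAR1 (53.4 ± 10.3), LOX3 (45.0 ± 49.7) and LOX4 (20.1 ± 21.7 FPKM) were lower. Neighbours in this order differed by less than the larger of their SDs, except at the steps from VSP1 to AOS and from AOC1 to OPR3. The summed FPKM of the 10 genes was 2535 and 1614 in the pwr libraries, 5779 and 2938 in the hda9 libraries and 5787 and 4707 in the WT libraries of ES leaves. No pwr library was the highest of the 6 for any of the 10 genes. The highest library was WT replicate 1 for LOX2, AOS, AOC1 and AOC2, WT replicate 2 for LOX3, LOX4, OPR3 and JAR1, and hda9 replicate 1 for VSP1 and VSP2. In a bulk leaf sample, fewer cells that express a gene and less RNA per cell cannot be told apart.

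**Figure D1:**
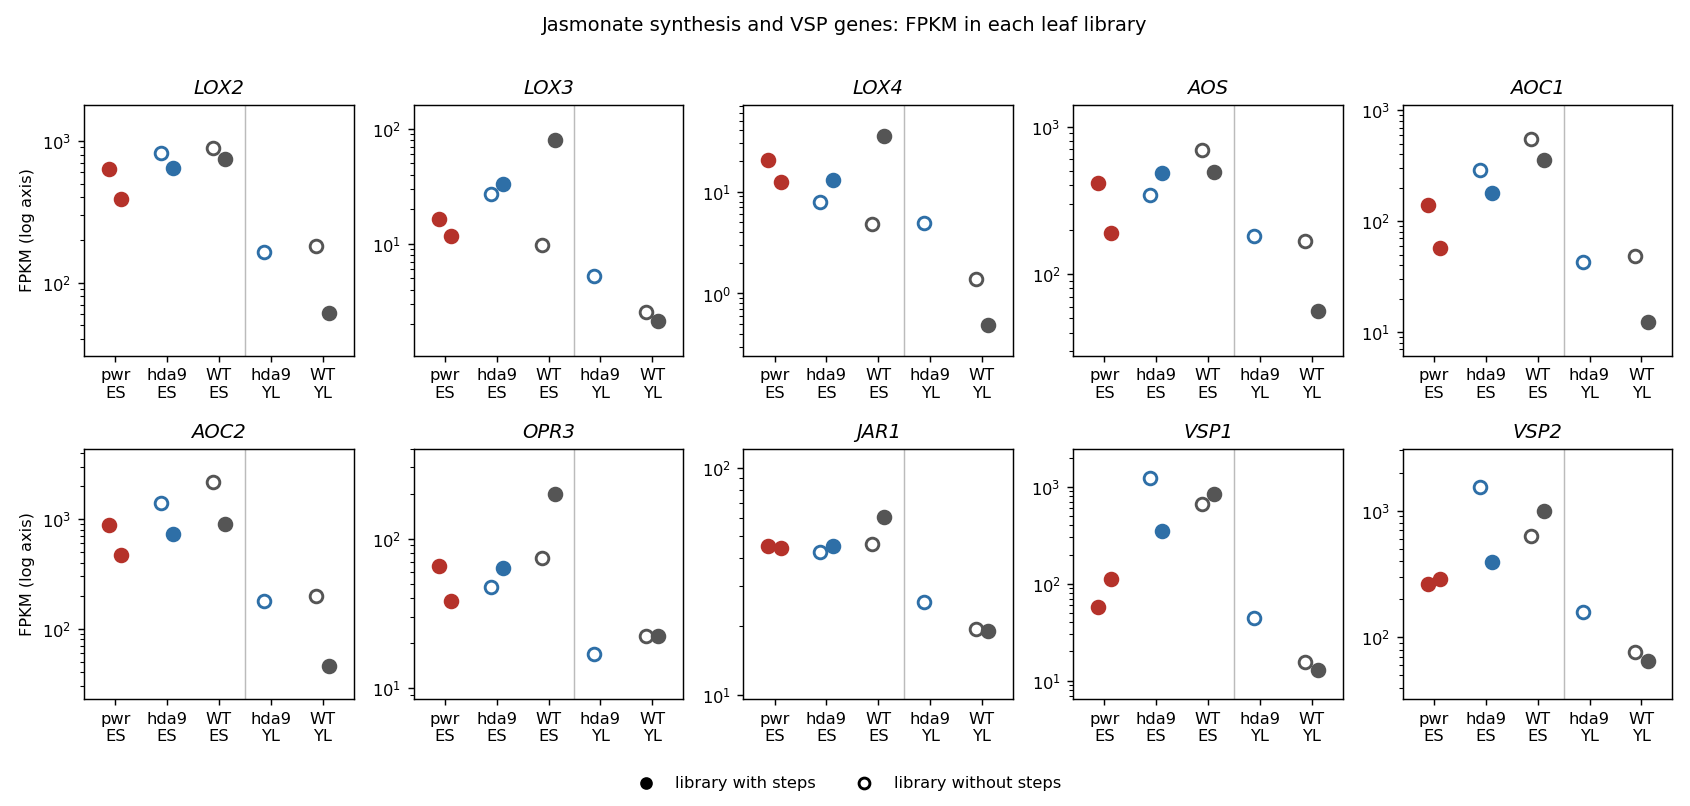
FPKM of the 10 genes (log axis, a separate scale in each panel) in each ES library (left of the line) and each YL library (right), with one point per library, filled for libraries with steps and open for those without. The pwr points of VSP1 (57.6 and 112 FPKM) lie below all 4 hda9 and WT points of ES leaves, and all 10 genes have their WT ES points above their WT YL points.

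In ES leaves of pwr 2 of the 10 genes, VSP1 and AOC1, were lower than in WT at the unadjusted p under 0.05 of the limma fit that serves as the call throughout. None of the 10 was called higher, and LOX4 alone had a fitted difference above 0 (0.23). By this rule 6.47% of all genes tested were called, 3.65% higher and 2.82% lower. The median difference over the 10 genes was -1.10 on the log2(FPKM + 1) scale, against 0.08 over all genes tested. At a Benjamini-Hochberg adjusted p under 0.05 none of the 10 passed in any comparison; that threshold passed 0.0331% of all genes tested for pwr minus WT, 0.0276% for hda9 minus WT and 0.00% for pwr minus hda9 in ES leaves, and 0.107% for hda9 minus WT in YL leaves. For 8 of the 10 both pwr libraries lay below both WT libraries, an order that 16.7% of all genes tested had. The 2 that overlapped were LOX3 and LOX4. Every mutant difference below is on the log2(FPKM + 1) scale, which understates the change of genes near 1 FPKM.

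The widest gap was that of the reporter VSP1. VSP1 was at 57.6 and 112 FPKM in pwr, 1235 and 349 FPKM in hda9, and 667 and 845 FPKM in WT. Both pwr libraries were below the other 4. The pwr minus WT difference was -3.21 ± 0.68 (SE), which passed at the unadjusted p and not after adjustment (adjusted p = 0.729, limma). Against WT replicate 2, the WT library of the same set, the 2 pwr libraries differed by -3.85 and -2.90. VSP2 was at 261 and 288 FPKM in pwr, 1545 and 396 FPKM in hda9, and 630 and 989 FPKM in WT. Its pwr libraries were again the lowest of the 6, and close to each other. The pwr minus WT difference of VSP2, -1.52 ± 0.68, did not pass (adjusted p = 0.729, limma). Within the set it was -1.92 and -1.78.

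Of the synthesis genes named at the start, that of the cyclase AOC1 was the only one called lower in pwr. LOX2, AOS, AOC2, OPR3 and JAR1 also had both pwr libraries below both WT libraries, without passing the threshold. A further cyclase gene, AOC4, was called lower too and is given below with the rest of the pathway. AOC1 was at 140 and 57.3 FPKM in pwr, 291 and 180 FPKM in hda9, and 556 and 355 FPKM in WT. The 3 genotypes did not overlap, with pwr at the bottom. The pwr minus WT difference was -2.30 ± 0.54 (adjusted p = 0.729, limma), and within the set -1.34 and -2.61. AOC2, which encodes a second cyclase and lies next to AOC1 on chromosome 3, was at 883 and 466 FPKM in pwr, 1420 and 732 FPKM in hda9, and 2207 and 905 FPKM in WT. The higher pwr value lay just under the lower WT value. Its difference of -1.14 ± 0.63 did not pass (adjusted p = 0.736, limma), and within the set it was -0.03 and -0.95.

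AOS, which feeds the cyclases, was at 414 and 191 FPKM in pwr, 341 and 484 FPKM in hda9, and 699 and 492 FPKM in WT. All mutant libraries lay below both WT libraries, hda9 replicate 2 only narrowly. The pwr minus WT difference of -1.06 ± 0.48 did not pass (adjusted p = 0.729, limma), and within the set it was -0.25 and -1.36. OPR3, the reductase of the next step, was at 65.5 and 38.2 FPKM in pwr, 47.1 and 63.6 FPKM in hda9, and 74.1 and 200 FPKM in WT. Both mutants were below both WT libraries, which themselves differed more from each other than either mutant did from WT replicate 1. The pwr minus WT difference of OPR3 was -1.27 ± 0.55 (adjusted p = 0.729, limma), and within the set -1.60 and -2.36. JAR1, the conjugating enzyme, varied least, at 45.0 and 44.5 FPKM in pwr, 42.7 and 45.3 FPKM in hda9, and 46.2 and 60.7 FPKM in WT, with a pwr minus WT difference of -0.24 ± 0.26 (-0.42 and -0.44 within the set).

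The lipoxygenases split into one gene that was steady and a pair that was not. LOX2, the abundant leaf enzyme, was at 632 and 392 FPKM in pwr, 822 and 643 FPKM in hda9, and 893 and 745 FPKM in WT. The pwr libraries were the lowest and the spread within each genotype was under 2-fold. The pwr minus WT difference of LOX2 was -0.71 ± 0.38 (adjusted p = 0.731, limma), and within the set -0.24 and -0.92. LOX3 was at 16.4 and 11.7 FPKM in pwr, 27.2 and 33.1 FPKM in hda9, and 9.84 and 80.1 FPKM in WT. LOX4 was at 20.5 and 12.5 FPKM in pwr, 7.86 and 12.9 FPKM in hda9, and 4.78 and 35.4 FPKM in WT. For both genes WT replicate 1 was the lowest and WT replicate 2 the highest of all 6 libraries. The fitted pwr minus WT differences were -1.0 ± 0.90 for LOX3 and 0.23 ± 0.86 for LOX4. Against WT replicate 2 alone, the 2 pwr libraries differed by -2.22 and -2.68 for LOX3 and by -0.76 and -1.43 for LOX4.

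VSP1 and AOC1 kept an unadjusted p under 0.05 in the pwr minus WT comparison when any 1 of the 4 libraries was left out, with differences between -2.73 and -3.68 for VSP1 and between -1.66 and -2.93 for AOC1. Without WT replicate 1, LOX3 was at -2.45 and OPR3 at -1.98. LOX4 was at 1.56 without WT replicate 2, and AOS at -1.61 without pwr replicate 1. With a term for the library set, VSP1 (-2.84), AOC1 (-1.97) and OPR3 (-1.73) were the genes called (limma). That fit called 2234 of the 18140 genes tested, 1202 of them lower. In a fit of pwr and WT alone VSP2 was called lower too, as were 577 of the 18140 genes tested.

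**Figure D2:**
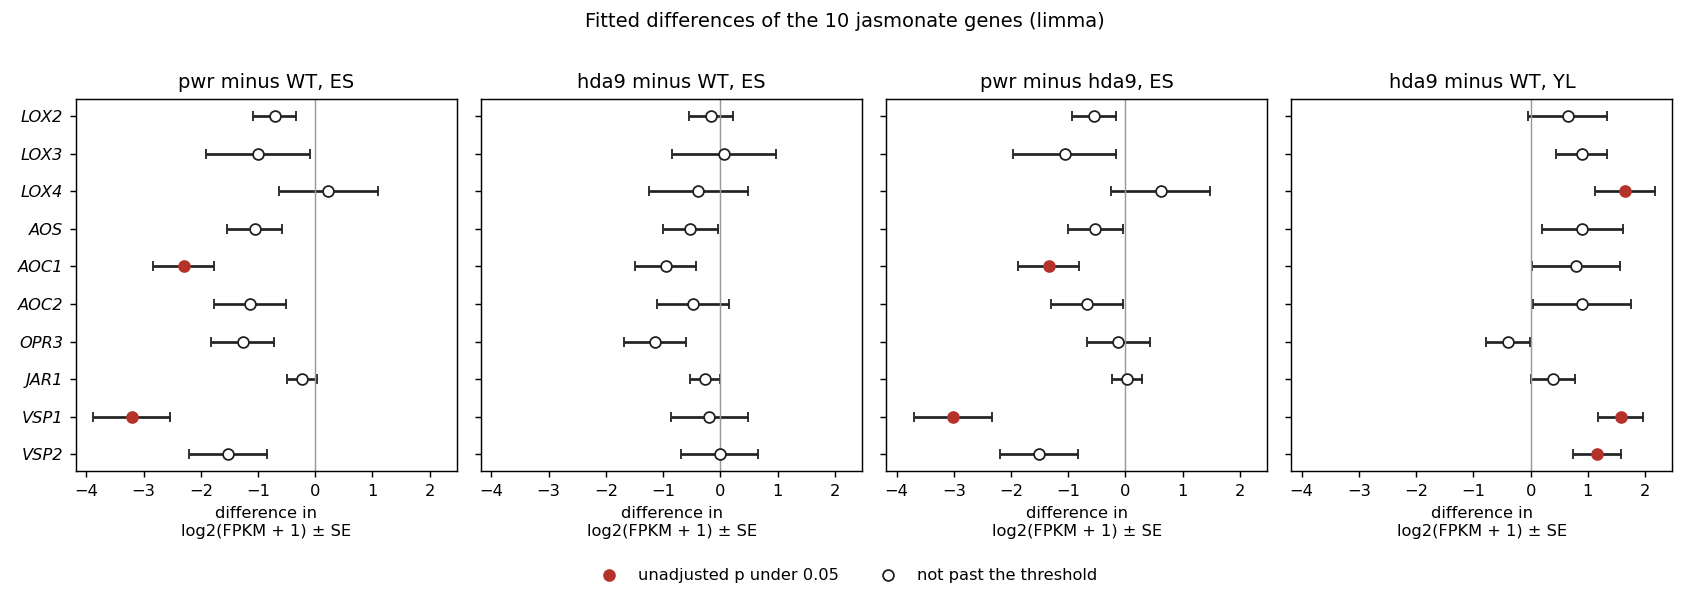
Fitted limma differences in log2(FPKM + 1) for the 10 genes, with bars of 1 SE, in ES leaves (pwr minus WT, hda9 minus WT, pwr minus hda9) and in YL leaves (hda9 minus WT), filled where the unadjusted p was under 0.05. VSP1 and AOC1 are filled in both pwr comparisons, none is filled for hda9 minus WT in ES leaves, and LOX4, VSP1 and VSP2 are filled, to the right of 0, in YL leaves.

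In ES leaves of hda9 none of the 10 genes passed the threshold, in a comparison that called 4.93% of all genes tested. The fitted difference was below 0 for 9 of the 10, with a median of -0.32, against 0.01 over all genes tested. The 2 farthest from 0 were OPR3 (-1.14 ± 0.55, adjusted p = 0.908, limma) and AOC1 (-0.95 ± 0.54, adjusted p = 0.908, limma). For 4 of the 10 (AOS, AOC1, OPR3 and JAR1) both hda9 libraries lay below both WT libraries, an order that 16.0% of all genes tested had. The same WT libraries serve both mutants, so the values of the 2 comparisons are not independent of each other.

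The library sets divided the hda9 result by gene. In the set without steps, hda9 replicate 1 was above WT replicate 1 for VSP2 (1.29), LOX3 (1.38), VSP1 (0.89) and LOX4 (0.62). In the set with steps, hda9 replicate 2 was below WT replicate 2 for the same genes, by -1.32 for VSP2, -1.25 for LOX3, -1.28 for VSP1 and -1.39 for LOX4. These 4 genes therefore had opposite signs in the 2 sets, and their pooled differences near 0 average over that. The other 6 were below WT in both sets, an outcome that 32.8% of all genes tested had. For AOC1 the within-set differences were nearly equal, -0.93 without steps and -0.97 with steps. OPR3 was at -0.64 and -1.64, LOX2 at -0.12 and -0.21, AOC2 at -0.64 and -0.31, JAR1 at -0.11 and -0.41, and AOS at -1.03 and -0.02, each without steps first.

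Single libraries moved the differences in this comparison. Without WT replicate 1, LOX3 was at -1.39, LOX4 at -1.71 and OPR3 at -1.85. Without WT replicate 2, LOX3 was at 1.52. The direction of LOX3 in hda9 thus turned with the WT library it was set against. With a term for the library set, OPR3 was called lower (-1.14, limma), in a fit that called 3075 of the 18140 genes tested, 1340 of them lower.

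**Figure D3:**
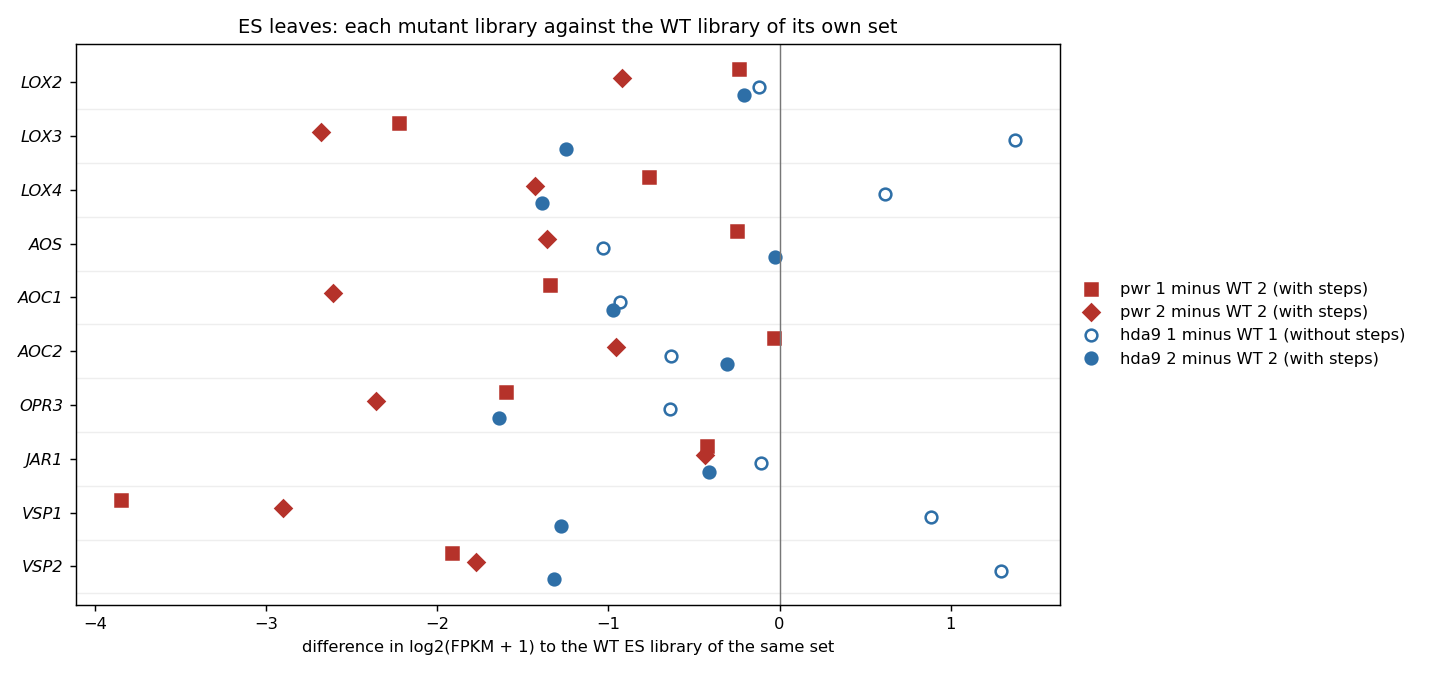
Difference in log2(FPKM + 1) between each mutant ES library and the WT ES library of the same set, for the 10 genes, with red squares and diamonds for the pwr libraries and blue circles for the hda9 libraries (open for the set without steps). All red and all filled blue points lie below 0, and the open points of LOX3, LOX4, VSP1 and VSP2 lie above 0. The red and the filled blue points are all taken against the same library, WT replicate 2, and so are not independent of each other. Of the 18140 genes tested, 8707 and 9131 were below 0 for pwr replicates 1 and 2, and 9046 for hda9 replicate 2.

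Set directly against hda9, pwr leaves again had less VSP1 and AOC1. Of the 10 genes these 2 were called lower and none higher, in a comparison that called 4.77% of all genes tested, 2.01% lower. For VSP1 the pwr minus hda9 difference was -3.01 ± 0.68 (adjusted p = 0.729, limma), and in the set with steps the 2 pwr libraries were below hda9 replicate 2 by -2.58 and -1.62. For AOC1 it was -1.34 ± 0.54 (adjusted p = 0.926, limma), and -0.37 and -1.64 in the set. The call of AOC1 was lost without hda9 replicate 1 (-1.0), hda9 replicate 2 (-1.69) or pwr replicate 2 (-0.71), and with a term for the set (-1.01, limma). It was also lost without a filter, at a mean of at least 5 FPKM and with either scaling. In a fit of these 2 genotypes alone the call of AOC1 was lost and LOX3 was called lower (-1.06). That fit called 908 of the 18140 genes tested, 480 of them lower. VSP2 was at -1.51 ± 0.68 (adjusted p = 0.926, limma), and at -2.49 without hda9 replicate 2. For 5 of the 10 (LOX2, LOX3, AOC1, VSP1 and VSP2) both pwr libraries lay below both hda9 libraries, against 14.4% of all genes tested. JAR1 (0.03 ± 0.26) and OPR3 (-0.13 ± 0.55) had differences smaller than their SE.

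The balance within gene pairs was read from each library. VSP1 over VSP2, the ratio of their FPKM in the same library, was 0.220 and 0.390 in pwr, 0.799 and 0.880 in hda9, and 1.06 and 0.854 in WT ES leaves. In YL leaves it was 0.279 in hda9, against 0.204 and 0.199 in WT. The ratios of the pwr ES leaves were thus nearer to those of YL leaves than to those of the other ES leaves. AOC1 over AOC2 was 0.158 and 0.123 in pwr, 0.205 and 0.246 in hda9, and 0.252 and 0.393 in WT ES leaves, with no overlap between pwr and the rest. LOX3 over LOX4 was 0.800 and 0.933 in pwr, 3.46 and 2.57 in hda9, and 2.06 and 2.26 in WT ES leaves, so that LOX4 was the higher of the pair in pwr only. No test was made of these ratios.

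In young leaves the single hda9 library had more of both reporters than either WT library. Of the 10 genes, 3 were called higher in hda9 YL leaves (VSP1, LOX4 and VSP2) and none lower, in a comparison that called 8.72% of all genes tested, 3.78% higher. VSP1 was at 44.4 FPKM in hda9, against 15.7 and 12.9 FPKM in WT (1.58 ± 0.39, adjusted p = 0.448, limma). VSP2 was at 159 FPKM in hda9, against 76.7 and 64.9 FPKM in WT (1.16 ± 0.43, adjusted p = 0.545, limma). LOX4 was at 4.90 FPKM in hda9, against 1.37 and 0.490 FPKM in WT (1.65 ± 0.53, adjusted p = 0.512, limma). The single hda9 library was above both WT libraries for these 3, and also for LOX3, AOS and JAR1, an order that 34.2% of all genes tested had. It rests on 1 hda9 library, which the fit assumes to vary like the WT libraries, with 1 residual degree of freedom before the variances are moderated across genes. The summed FPKM of 8 touch and wound genes was 530 in the same library, against 335 and 142 in WT YL leaves. All 8 had a pooled difference above 0 (median 1.36). Within the set, against WT replicate 1 alone, 6 were above 0 and 2 below (median 0.82). The part of the touch and wound genes in the values of VSP1, VSP2 and LOX4 was not tested.

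For the other members the WT libraries of YL leaves were far apart. LOX2 was at 165 FPKM in hda9, against 180 and 61.2 FPKM in WT. AOS was at 182 FPKM in hda9, against 168 and 55.8 FPKM in WT. AOC1 was at 43.1 FPKM in hda9, against 48.4 and 12.2 FPKM in WT, and AOC2 at 179 FPKM in hda9, against 199 and 45.3 FPKM in WT. For all 4 genes the hda9 library lay close to WT replicate 1, which is in its own set, and far above WT replicate 2. LOX3 was at 5.23 FPKM in hda9, against 2.58 and 2.14 FPKM in WT, OPR3 at 16.8 FPKM in hda9, against 22.4 and 22.5 FPKM in WT, and JAR1 at 25.6 FPKM in hda9, against 19.4 and 19.1 FPKM in WT. Within the set, against WT replicate 1 alone, the differences were 1.44 for VSP1, 1.04 for VSP2, 1.31 for LOX4 and 0.80 for LOX3, whereas LOX2 (-0.12), AOC1 (-0.16) and AOC2 (-0.16) fell on the other side of 0 from their pooled values (0.65, 0.79 and 0.90).

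All 10 genes were higher in ES than in YL leaves of WT, in every library, an order that 51.2% of the 18680 genes compared had. The tables for the stages are separate, so levels are set side by side without a test. In WT the median difference over the 10 genes was 3.05 on the log2(FPKM + 1) scale, 2.18 between the libraries without steps and 4.10 between those with steps. VSP1 had the widest gap, from 5.32 without steps to 5.93 with steps, and JAR1 the narrowest in both sets (1.21 without and 1.62 with steps). In hda9 replicate 1 the ES minus YL difference was 4.77 for VSP1, 3.27 for VSP2, 2.98 for AOC2 and 0.59 for LOX4. In YL leaves 1 gene took between 36.4% and 66.5% of the FPKM sum of a library, against 5.06% or less in ES leaves, and the part of this in the stage differences was not tested.

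The rest of the pathway was followed in lists of known genes. Of 13 further synthesis genes tested in ES leaves (among 14 listed), the cyclase gene AOC4 alone was called in pwr (2.82% of all genes tested were called lower), with 21.9 and 15.1 FPKM in pwr, against 67.8 and 39.7 FPKM in WT (-1.46 ± 0.44, limma, adjusted p = 0.729). None was called in hda9. The list median was -0.24 in pwr and 0.28 in hda9, against -1.10 and -0.32 for the 10 genes. Within the sets it was -0.36 and -0.20 in the pwr libraries, and 0.55 without steps and 0.19 with steps in hda9. Of 10 signalling genes, which include COI1 and MYC2, none was called in pwr (median 0.37, and 0.028 and -0.029 within the set). The transcription factor gene WRKY57, a repressor of jasmonate-induced senescence, was called higher in hda9 (as were 2.23% of all genes tested), at 46.5 and 60.0 FPKM in hda9, against 27.4 and 35.9 FPKM in WT (0.73 ± 0.28, and 0.75 without steps and 0.72 with steps).

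Genes of the jasmonate response were called in pwr as well. Of the 7 genes of the MYC branch, 5 were called lower in pwr and none higher, with a list median of -1.60, against 2.82% of all genes tested called lower. Within the set the list median was -2.22 and -2.65 in the pwr libraries, and in hda9 it was 0.55 without steps and -1.13 with steps. NATA1, an ornithine acetyltransferase, was at 10.2 and 4.96 FPKM in pwr, against 55.0 and 141 FPKM in WT (-3.45 ± 0.69). BSMT1, which methylates salicylic acid, was at 3.31 and 2.46 FPKM in pwr, against 8.30 and 123 FPKM in WT (-3.13 ± 1.14). JR1, a lectin-like protein, was at 76.0 and 70.2 FPKM in pwr, against 222 and 742 FPKM in WT (-2.46 ± 0.60), and the cystine lyase gene CORI3 at 379 and 463 FPKM in pwr, against 922 and 1768 FPKM in WT (-1.60 ± 0.43). All 4 were below both WT libraries in both pwr libraries, and the fifth called gene was the thionin THI2.1 (-1.28 ± 0.33). In hda9, THI2.1 alone of the 7 was called, at 2.71 and 1.70 FPKM in hda9, against 10.2 and 7.86 FPKM in WT (-1.65 ± 0.33, limma, adjusted p = 0.908). Of 6 genes of the ERF branch that could be tested (among 7), 1 was called in pwr and it was higher (3.65% of all genes tested were): PR4, at 88.6 and 55.7 FPKM in pwr, against 32.0 and 32.5 FPKM in WT (1.10 ± 0.40). The median of these 6 was -0.0082 in pwr and -0.18 in hda9, and within the set it was 0.63 and -0.82 in the pwr libraries.

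Some of the JAZ repressors, which jasmonate itself induces, and of the enzymes that inactivate the hormone were called. Of 12 JAZ genes, 4 were called lower in pwr and none higher, against 2.82% of all genes tested called lower, with a median of -0.65 (-1.07 and -1.30 within the set): JAZ10 (-2.74 ± 0.71), JAZ9 (-1.45 ± 0.47), JAZ3 (-1.31 ± 0.27) and JAZ12 (-0.71 ± 0.26). None of the 12 was called in hda9 (median -0.05, and 0.32 without steps and -0.39 with steps). Of 9 turnover genes tested (among 10), 2 were called lower in pwr, ST2A (-1.74 ± 0.56) and the amidohydrolase gene ILL6 (-1.38 ± 0.35), and 3 were called higher in hda9 (2.23% of all genes tested were), the oxidase genes JOX4 (3.40 ± 1.24) and JOX3 (2.53 ± 0.74) and the hydroxyjasmonate sulfotransferase gene ST2A (2.00 ± 0.56). JOX3 was at 408 and 157 FPKM in hda9, against 27.1 and 67.8 FPKM in WT. ST2A was at 4.68 and 2.14 FPKM in pwr and 54.4 and 56.0 FPKM in hda9, against 7.37 and 22.7 FPKM in WT, so that the mutants lay on opposite sides of WT. Within the sets the median of the turnover genes was -2.06 and -1.91 in the pwr libraries, and in hda9 1.48 without steps and 0.31 with steps. For turnover genes the pwr minus hda9 comparison, which tests this difference directly, called 5 of 9 lower (JOX4, ST2A, JOX3, JOX2 and ILL6, from -4.61 to -1.27) and none higher, against 2.01% of all genes tested called lower. No gene of these lists passed an adjusted p of 0.05 in any of the 4 comparisons (limma).

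**Figure D4:**
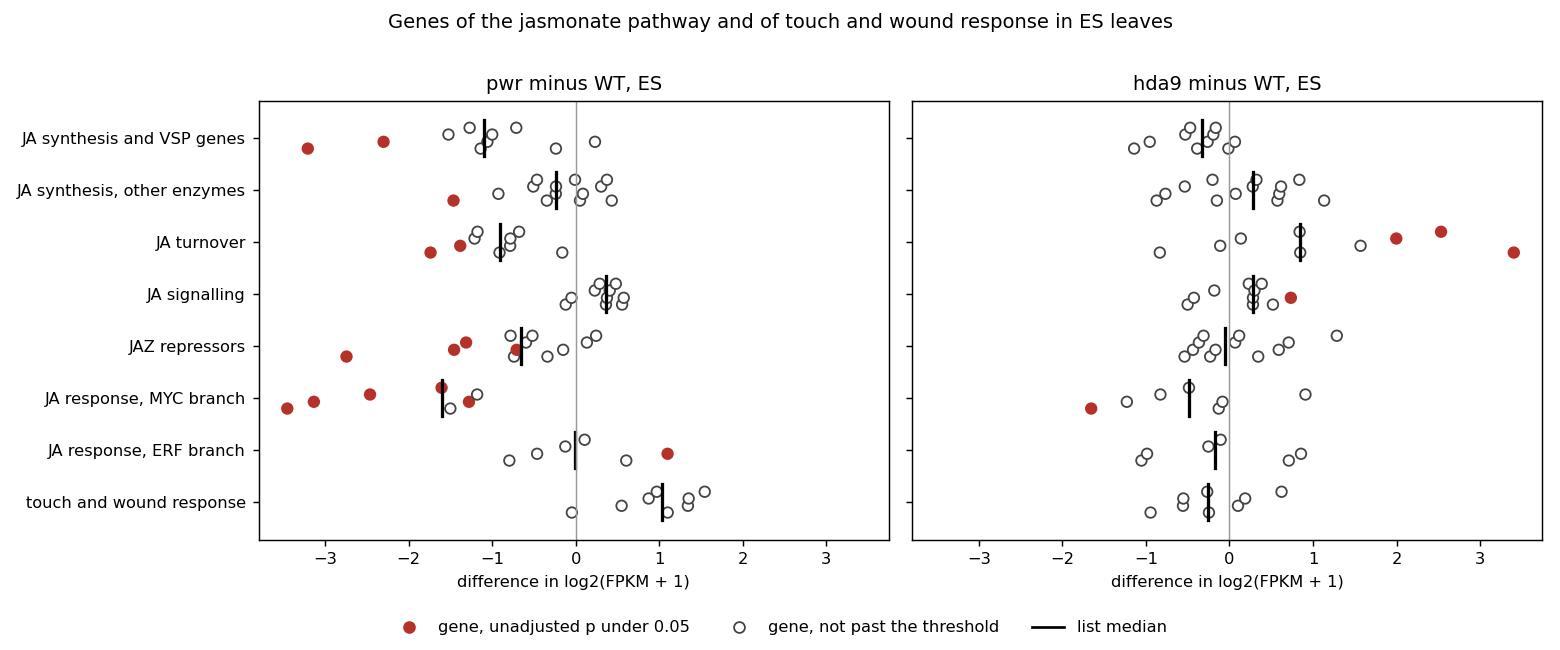
Fitted difference in log2(FPKM + 1) of each tested gene in ES leaves, pwr minus WT on the left and hda9 minus WT on the right, by list, filled where the unadjusted p was under 0.05, with a bar at the list median. The medians of the MYC branch (-1.60) and of the 10 genes of synthesis and VSP (-1.10) lie to the left of 0 in pwr, where LOX4 lies to the right. The median of the turnover genes lies to the left in pwr (-0.91) and to the right in hda9 (0.85), where 2 of the 9 lie to the left.

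Genes known to respond to touch and wounding differed between the library sets of ES leaves. The summed FPKM of 8 such genes (TCH2, TCH3, TCH4, ZAT10, ZAT12, WRKY40, WRKY33 and CML38) was 926 and 724 in pwr, 202 and 691 in hda9, and 206 and 878 in WT ES leaves. It was 202 and 206 in the libraries without steps and between 691 and 926 in those with steps. In YL leaves the sets lay the other way round, at 530 and 335 without steps and 142 with steps. CML38, a calmodulin-like gene, was at 63.7 and 79.2 FPKM in pwr, 13.2 and 196 FPKM in hda9, and 8.87 and 244 FPKM in WT. LOX3, LOX4, OPR3, JAR1, VSP1 and VSP2 were lower in WT replicate 1 than in WT replicate 2, as this sum was, whereas AOC1, AOC2, LOX2 and AOS were higher in WT replicate 1. In ES leaves none of the 8 was called in hda9 or in pwr against WT, at a median difference of 1.04 in pwr and -0.26 in hda9, and within the set the pwr libraries were at -0.072 and -0.24. The summed FPKM of 6 senescence markers, some of them picked in the study, was 517 and 314 in pwr, 1365 and 2095 in hda9, and 538 and 1352 in WT. Within the sets their median was -1.71 and -1.75 in the pwr libraries, and in hda9 1.26 without steps and 0.89 with steps. The study reported SEN4, SAG12 and SAG113 as lower in hda9 by quantitative RT-PCR. From its RNA-seq it also reported that senescence-associated genes rose less from YL to ES leaves in hda9 than in WT, which was not examined here. The fitted hda9 minus WT differences of SEN4, SAG12 and SAG113 here were 0.55, 0.85 and 0.39, and none passed the threshold. FPKM and RT-PCR are different measures, and SAG12 was at 10.9 FPKM or less in every ES library. The sum for RBCS1A, CAB1 and RCA was 11305 and 15427 in pwr, 15295 and 4243 in hda9, and 24888 and 11475 in WT. The part that these marker differences had in those of the 10 genes was not tested.

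The 5 genes outside all lists whose profile over the 6 ES libraries was most like the mean standardized profile of the 10 genes were MAM1 (Pearson's r = 0.99), AOP2 (0.98), AT3G27400 (0.98), CYP79F1 (0.95) and AT4G02360 (0.95), out of 1498 genes ranked. MAM1, AOP2 and CYP79F1 are genes of the aliphatic glucosinolate pathway. MAM1 was at 175 and 77.6 FPKM in pwr, 246 and 187 FPKM in hda9, and 330 and 499 FPKM in WT. CYP79F1 was at 132 and 51.5 FPKM in pwr, 208 and 111 FPKM in hda9, and 325 and 389 FPKM in WT. In both, as in AOC1, pwr replicate 2 was the lowest library and every hda9 library lay below every WT library. Of the 10 genes themselves AOC1 was nearest to the mean profile (0.88) and LOX4 farthest from it (0.20). These correlations describe 6 libraries that share genotype and set, and carry no test.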

How the data were processed

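RNA was extracted from leaves and sequenced as TruSeq libraries. The authors aligned reads to TAIR10 with Bowtie2 and TopHat, collapsed reads at identical positions, and deposited gene levels as FPKM from Cufflinks; further scaling is not given in the sources used here. Each of the 9 columns was mapped to a sample by its title, and 0 columns were left without a sample. No counts were given, so depth is unknown apart from the relative steps, and no counting interval was computed. ChIP-seq samples were not analysed here.

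Genes averaging 1 FPKM or more across a table were kept and log2(FPKM + 1) was taken. The limma package (3.58.1, under R 4.3.3) fitted the 3 ES genotypes together and the YL libraries apart, with variances moderated along a trend. The call was an unadjusted p under 0.05, the level used in the study, and Benjamini-Hochberg adjusted p-values are over all genes tested. The fit was tested on simulated data in which the libraries varied independently of each other, so the library sets were not covered by that test. Library sets were found by the share of genes under 1 FPKM (over 10%) that have 1 common ratio between a pair of libraries. Sequences were read from RefSeq (TAIR10.1), whose gene spans overlapped all 2412 of the study's TAIR10 spans compared. Python 3.11.15, pandas 2.3.3, numpy 2.4.6, biopython 1.88 and matplotlib 3.10.9 were used.

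The 10 genes and the lists were chosen with earlier results of these data known. Named beyond the 10 were the called genes of each list in hda9 or pwr against WT in ES leaves, at most 4 a list by size of difference, and the 5 genes most like the mean profile among genes with a mean of at least 10 FPKM and a range of at least 2 log2 units. Other names in the text were added after their values were seen. Alternatives were a pseudocount of 0.1, no filter, a mean of at least 5 FPKM, scaling to the 75th percentile or by median ratios, a replicate block, a library set block, a fit of 2 groups only, adjusted p, a 1.5-fold threshold and each library left out.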

Additional observations from a re-analysis of the deposited data

Results flagged for a closer look

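Among the 10 genes and the list genes called against WT in ES leaves, 6 had hda9 on one side of WT in every ES library and on the other side in every YL library. OPCL1, JMT, MYC2, CLH1 and ORA59, which were on the lists and not called there, had such an order too. The share of all genes tested with such an order was not counted. Within a stage, hda9 lay below WT without overlap in 16.0% of genes tested in ES leaves. It lay above WT without overlap in 34.2% of genes tested in YL leaves. The difference between stages was not tested, it rests on 1 hda9 YL library, and most of the single values did not pass the limma threshold. AOS was at -0.53 in ES and 0.91 in YL (hda9 minus WT, log2(FPKM + 1)), JAR1 at -0.26 and 0.39, AOC4 at -0.87 and 0.57, and JOX3 at 2.53 and -0.45. THI2.1 was at -1.65 in ES and 2.90 in YL, past the threshold in both. CAB1 was at -2.07 in ES and 0.77 in YL.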

How the results depend on the processing

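Of the 10 genes, 0 were called for hda9 minus WT in ES leaves, 2 for pwr minus WT, 2 for pwr minus hda9 and 3 for hda9 minus WT in YL leaves, out of 895, 1173, 865 and 1550 genes called in all. At adjusted p under 0.05 the counts among the 10 were 0 in each comparison, and over all genes 5, 6, 0 and 19 (limma). By a 1.5-fold difference alone they were 2, 8, 6 and 8, and over all genes 3904, 4640, 3858 and 6555. Without a filter all genes called in ES leaves numbered 1356, 1792 and 1497, in the same order. For pwr minus hda9, 1 of the 10 was called without a filter, with a mean of at least 5 FPKM, with 75th percentile scaling, with median ratio scaling and with a library set block. With that block 1 was called for hda9 minus WT, all genes called numbered 3075, 2234 and 3440, LOX4 turned to -0.59 (pwr minus WT) and -0.21 (pwr minus hda9), and JAR1 to -0.091 (pwr minus hda9), which was -0.035 with median ratio scaling.

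Replicate numbers were not taken to pair the libraries, since same-numbered libraries deviated together between WT and hda9 (r = 0.550) but not between WT and pwr (0.0991) or hda9 and pwr (-0.0113). With a replicate block 1 of the 10 was called for hda9 minus WT (AOC1), 3 for pwr minus WT and 2 for pwr minus hda9, and 1560, 2161 and 1495 genes in all.

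With each library left out, the count among the 10 ran from 0 to 3 for hda9 minus WT, 2 to 4 for pwr minus WT and 1 to 2 for pwr minus hda9, and over all genes from 477 to 1698, 436 to 1388 and 490 to 1098. For hda9 minus WT the differences ran from -1.39 to 1.52 for LOX3, -1.71 to 0.94 for LOX4, -1.11 to 0.17 for AOC2, -0.34 to 0.012 for LOX2, -0.99 to 0.97 for VSP2 and -1.10 to 0.72 for VSP1. For pwr minus WT they ran from -2.45 to 0.45 for LOX3 and -1.10 to 1.56 for LOX4, and for pwr minus hda9 from -0.51 to 0.25 for OPR3, -0.015 to 0.066 for JAR1 and -1.08 to 0.028 for AOS. In YL leaves a left-out WT library leaves a value with no test. A left-out ES library leaves a lone library that is assumed to vary like the others. The cause of these changes was not tested.

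The median ES minus YL difference in WT lay between 2.62 and 3.51 with the other pseudocount, with 75th percentile scaling and with single libraries left out, and outside that range within the sets (2.18 without steps and 4.10 with steps). Of 488 further values of single genes that have a test, 419 kept direction and side of the threshold. Most of these belong to genes that were not called in the main fit, and a changed threshold alone cannot turn a direction. The count is therefore no measure of how stable the calls are. Of the others, 20 changed direction, 33 gained a call and 16 lost one, 11 of these 16 for pwr minus hda9.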
